A study of Mus musculus with 15 samples.

Results

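The expression of 10 acinar genes was followed in the embryonic mouse pancreas. The 10 genes were 4 transcription factors of acinar cells, Ptf1a, Rbpjl, Nr5a2 and Bhlha15, and 6 genes of the zymogen granule, Gp2, Sycn, Rab3d, Rab27b, P2rx1 and Rap1gap. They were taken by name, by a choice made with earlier results of these data known, from the 25292 genes of the count table, and all 10 were among the 16245 genes with enough reads to be tested. The question addressed was whether the factors and the granule genes moved together across genotype, culture, S1pr2 antagonist and growth factor.

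Acinar cells of the exocrine pancreas make digestive enzymes and store them in zymogen granules, which fuse with the apical membrane when the cell is stimulated. Ptf1a is the pancreas-restricted bHLH subunit of the PTF1 complex, which binds an E-box and a neighbouring TC box and requires an Rbpj-type subunit. Early in development that subunit is Rbpj, the protein that also carries Notch signals, and Rbpjl takes its place as acinar cells mature and enzyme genes are switched on. Nr5a2 is a nuclear receptor that acts with PTF1 at acinar genes. Bhlha15, also known as Mist1, is a bHLH factor of secretory cells that builds up the granule and secretory machinery.

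RNA was sequenced from 15 libraries in 5 groups of 3, and each library was a pool of up to 3 organs or explants of the same kind, on the C57BL/6J background. Pancreata of wild-type (wt) embryos and of embryos labelled S1pr2 null (S1pr2 tm1Rlp allele) were taken at 14.5 days post coitum (dpc) without culture. S1pr2 is a G protein-coupled receptor for the lipid sphingosine-1-phosphate. The other 3 groups were wild-type explants of that stage, described in the methods of the study as dorsal buds, kept for 2 days in air-liquid interface culture in serum-free medium: in standard medium (control), with 15 μM of the S1pr2 antagonist JTE013 (JTE), or with 15 μM JTE013 and 50 ng/ml connective tissue growth factor (CTGF), a matricellular protein (JTE with CTGF). Solvent was given to controls where appropriate, according to the study. Samples were independent by the study's account, and p-values measure the spread between such pools. In bulk RNA, fewer acinar cells and less RNA per acinar cell cannot be told apart.

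The libraries held 11402804 to 13828737 counted reads each. S1pr2 itself had 858, 796 and 812 reads in wt and 1486, 1368 and 1609 reads in the libraries labelled S1pr2 null (log2 fold change 0.83 ± 0.07 SE, edgeR adjusted p = 4.5e-07), so reads of the gene were not lost. By the study's account a Neo cassette disrupts the first exon in this allele and the S1pr2 protein is absent, so reads counted over the whole gene do not check the label, and the genotype is named by it throughout. Library JTE 3 stood apart from JTE 1 and JTE 2, with a chi-square per gene of 17.2 and 23.2 against 2.34 to 10.2 for the other pairs within groups. It was the lowest JTE library for 9 of the 10 genes and the highest for Gp2. Its normalised counts were between 31.5% (Sycn) and 82.3% (Nr5a2) of the mean of JTE 1 and JTE 2 for those 9 genes and 133% for Gp2. The summed level of 6 pancreatic epithelial markers was 6480 CPM (reads scaled to library size) in JTE 3 against 10300 and 11900 in the other JTE libraries. Most of that sum was the acinar enzyme gene Cpa1, at 6130 CPM in JTE 3 against 9920 and 11500. The summed level of 20 general epithelial genes differed less, at 3320 CPM against 3880 and 3910. That of 10 mesenchymal markers was 13900 against 10800 and 11400. Results for JTE are therefore given with and without JTE 3. All 6 pancreatic epithelial markers, Cpa1 and Pdx1 among them, were present in every group, and 8 of 10 stomach and intestine markers were under 1 CPM in all libraries.

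The genes are spread over the genome (mm10). Ptf1a (ENSMUSG00000026735) spans bases 19445663 to 19447501 of chromosome 2 and Rbpjl (ENSMUSG00000017007) bases 164403141 to 164415448 of the same chromosome. Nr5a2 (ENSMUSG00000026398) lies on chromosome 1 from 136843584 to 136960427 and Bhlha15 (ENSMUSG00000052271) on chromosome 5 from 144190286 to 144194441. Gp2 (ENSMUSG00000030954) and Sycn (ENSMUSG00000084174) are both on chromosome 7, from 119442544 to 119459272 and from 28540885 to 28542210. All 10 are protein-coding genes, and none overlaps another gene on its own strand. The remaining granule genes are Rab3d (ENSMUSG00000019066, chromosome 9, 21907491 to 21918192), Rab27b (ENSMUSG00000024511), P2rx1 (ENSMUSG00000020787, chromosome 11, 72999103 to 73015200) and Rap1gap (ENSMUSG00000041351, chromosome 4, 137664726 to 137729861). On the opposite strand, exons of Ptf1a overlap 609 bases of Ptf1aos, which had 2 to 8 reads per library, and exons of Rbpjl overlap 149 bases of Matn4, which had 837 to 1435. At most 0.32% of the 50-base words of any of the 10 genes also occur at another locus.

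Because PTF1 recognises an E-box next to a TC box, the 250 bases before each RefSeq transcription start (GRCm38.p6) were searched on both strands for CANNTG and for TTCCCA. Such windows were given for 9 of the 10 genes, all but Rab27b, with several alternative starts for Nr5a2 and Rap1gap. Rap1gap had 7 windows, Nr5a2 had 2 and the other 7 genes had 1 each, 16 in all, so that these 2 genes had more chances of a match. An E-box CANNTG occurred before 5 of the 9 genes (Rbpjl, Nr5a2, Bhlha15, Gp2 and Rap1gap), beside 69.3% of all genes with windows. By window it occurred in 12 of the 16, all 7 of Rap1gap among them, and in 66.2% of all 32536 windows of the same length. The core TTCCCA occurred before 6 of the 9 (Ptf1a, Rbpjl, Gp2, Sycn, P2rx1 and Rap1gap), beside 24.1% of all genes. It was in 8 of the 16 windows and in 21.6% of all windows. The longer TTTCCCA, which contains TTCCCA and was found in 6.8% of all windows, occurred before none of the 9, nor did the nuclear receptor motif AAGGTCA, found in 4.09%. Among particular E-boxes, CACCTG was found in 5 of the 16 windows and in 17.3% of all windows. It stood before 4 of the 9 genes and before 19.4% of all genes. CAGCTG was found in 4 windows, all of Rap1gap, and in 13.1% of all windows, and CATATG in none and in 3.42%. An E-box and a TTCCCA core starting within 30 bases of each other were found before 2 genes, Rbpjl (1 window) and Rap1gap (2 overlapping windows). Such pairs were found before 5.67% of all genes and in 4.93% of all windows. Shown here are those paired stretches and the whole windows of Bhlha15, the factor with the largest difference between the genotypes, and of Gp2 and Sycn, the granule genes that moved in opposite directions with JTE. Capitals mark CANNTG and TTCCCA on either strand (TTCCCA reads TGGGAA on the other strand). Sequences run 5′ to 3′ on the strand of the gene and are from RefSeq.
Rbpjl, paired motifs (chr2:164403090-164403117, plus strand): TGGGAAgcctaCATCTGcccagCAGGTG
Rap1gap, paired motifs (chr4:137707309-137707324, plus strand): TGGGAAgacaCAGCTG
Bhlha15 (chr5:144190036-144190285, plus strand): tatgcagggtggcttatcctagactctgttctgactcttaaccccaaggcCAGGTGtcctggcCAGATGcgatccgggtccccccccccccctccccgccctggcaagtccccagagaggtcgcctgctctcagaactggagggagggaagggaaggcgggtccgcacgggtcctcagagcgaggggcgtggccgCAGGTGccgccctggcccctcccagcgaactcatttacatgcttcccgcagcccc
Gp2 (chr7:119459273-119459522, minus strand): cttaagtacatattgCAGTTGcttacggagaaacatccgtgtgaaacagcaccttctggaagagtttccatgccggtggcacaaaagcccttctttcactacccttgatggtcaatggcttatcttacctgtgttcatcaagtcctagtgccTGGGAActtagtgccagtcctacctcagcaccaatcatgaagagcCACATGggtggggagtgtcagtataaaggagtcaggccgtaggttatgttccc
Sycn (chr7:28540635-28540884, plus strand): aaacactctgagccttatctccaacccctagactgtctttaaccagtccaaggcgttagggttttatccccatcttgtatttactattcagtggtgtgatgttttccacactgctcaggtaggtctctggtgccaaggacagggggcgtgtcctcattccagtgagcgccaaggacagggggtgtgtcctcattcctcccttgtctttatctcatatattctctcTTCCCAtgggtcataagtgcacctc
The Rbpjl stretch holds 2 E-boxes, which start 93 and 82 bases before the RefSeq start, and a TTCCCA core at 104 bases. Bhlha15 has 3 E-boxes in its window, at 200, 187 and 55 bases, and no TTCCCA. The E-boxes of Gp2 start at 235 and 53 bases and its TTCCCA core at 98, while Sycn has a TTCCCA core at 25 bases and no E-box. A match describes the letters only and does not show that a factor binds there.

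Levels of different genes were compared per length, as RPKM, reads scaled to gene length and library size. In wt pancreata at 14.5 dpc Rbpjl was at 63.9 ± 16.3 RPKM (SD, n = 3) and P2rx1, an ATP-gated cation channel found on granule membranes, at 48.3 ± 7.32. Ptf1a (35.9 ± 12.1), Nr5a2 (33.2 ± 1.72), Bhlha15 (33.0 ± 9.88) and Rap1gap (26.7 ± 6.01) followed with overlapping libraries. Rab3d was at 19.5 ± 3.65 RPKM and Sycn at 6.62 ± 1.78. Rab27b (1.16 ± 0.288) and Gp2 (0.185 ± 0.122) were the lowest. The factors and the granule genes P2rx1, Rap1gap and Rab3d were thus well expressed in wt at 14.5 dpc. Sycn rested on 149 reads summed over the 3 wt libraries, and Gp2 on 15 (exact 95% Poisson interval 8.4 to 24.74, counting error only). After 2 days of culture Sycn led the 10 genes at 331 ± 122 RPKM in the control explants, Rbpjl was next with libraries between 50.3 and 78.8 RPKM, and Gp2 reached 4.77 ± 2.40.

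**Figure D1:**
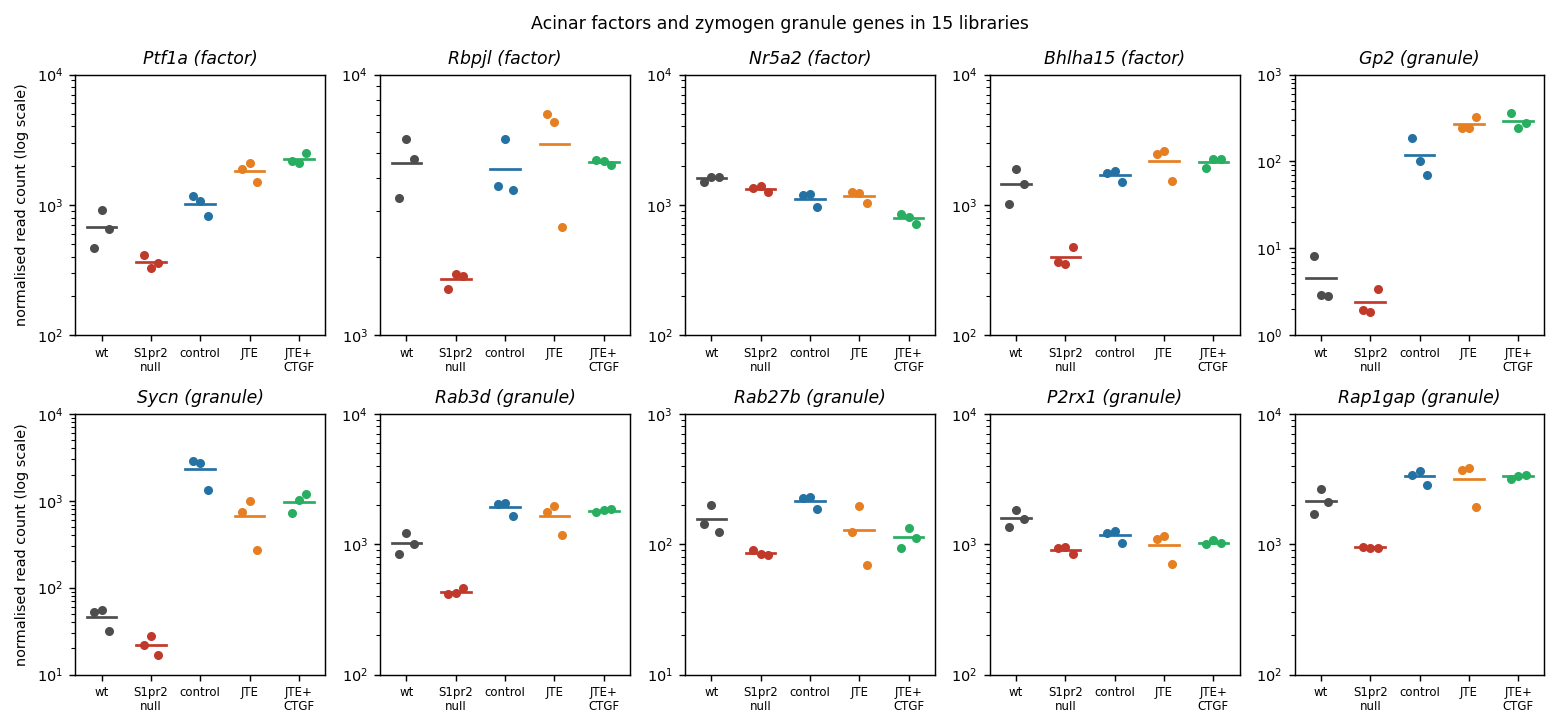
Normalised read count (log axis, range differing between panels) of the 4 factors and 6 granule genes in each library, in the groups wt, S1pr2 null, control, JTE, and JTE with CTGF; points are libraries and bars are group means of 3. The S1pr2 null points lie below all wt points for 9 of the 10 genes, Gp2 excepted. The share of all genes with such a separation is not given, so this describes the points only. JTE 3, the rightmost JTE point, is the lowest of its group in every panel but that of Gp2.

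The first comparison asked how the 10 genes differed between the libraries labelled S1pr2 null and wt at 14.5 dpc. All 4 factors were lower in S1pr2 null, by amounts that ranged from slight (Nr5a2) to 3.64-fold (Bhlha15). Of the 6 granule genes, 4 were lower (Rab3d, Rap1gap, Rab27b and P2rx1), and Gp2 and Sycn, the scarce ones at this stage, did not pass the test. None was higher. Factors and granule genes therefore fell together here: the median log2 fold change was −1.19 for the factors and −0.99 for the granule genes (−1.03 without Gp2 and Sycn), beside −0.01 for all genes tested. Over all genes tested, 25.8% passed an adjusted p of 0.05 in this comparison, 12.6% as higher and 13.3% as lower. Bhlha15, Nr5a2, P2rx1, Ptf1a and Rbpjl also stand in a list of acinar genes that the study gives.

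Bhlha15 had 1018, 1884 and 1442 normalised reads (counts scaled to the mean library size) in the wt libraries and 362.1, 350 and 476.2 in the S1pr2 null libraries. The groups did not overlap, and the log2 fold change was −1.86 ± 0.21 (SE, edgeR adjusted p = 9.41e-06). Rbpjl fell by 1.48 ± 0.27 on the log2 scale, from 3352, 5675 and 4752 to 1511, 1721 and 1690 normalised reads (edgeR adjusted p = 0.00073). Its 3 wt libraries spread more widely (coefficient of variation 25.5%) than the S1pr2 null libraries (6.91%), and every wt library lay above every S1pr2 null library. Ptf1a had 464.5, 920.4 and 652.2 normalised reads in wt and 411.2, 329.6 and 357.5 in S1pr2 null (−0.89 ± 0.20 SE, edgeR adjusted p = 0.00319). The wt 1 library lay close to the highest S1pr2 null library, and without wt 1 the difference was larger (−1.10), without wt 2 smaller (−0.61, edgeR adjusted p = 0.0257). Nr5a2 differed least, with 1501, 1650 and 1638 normalised reads in wt and 1350, 1395 and 1252 in S1pr2 null (−0.26 ± 0.09 SE, edgeR adjusted p = 0.0406). This call was lost when wt 2, wt 3, S1pr2 null 1, S1pr2 null 2, S1pr2 null 3 or JTE with CTGF 2 was left out, with adjusted p from 0.0505 to 0.154. With 1 wt or S1pr2 null library left out, fewer genes were called over all genes too, 2809 to 3893 in place of 4199.

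Among the granule genes, Rab3d, a small GTPase on zymogen granules that serves their maturation and exocytosis, had 845.3, 1227 and 1001 normalised reads in wt and 413.1, 423.8 and 459.3 in S1pr2 null. The groups were well apart, and the log2 fold change was −1.24 ± 0.16 (SE, edgeR adjusted p = 3.75e-05). Rap1gap, which switches off the small GTPase Rap1, was at 1691, 2658 and 2116 in wt and at 959.7, 934.4 and 935.5 in S1pr2 null (−1.19 ± 0.20 SE, edgeR adjusted p = 0.000332). The S1pr2 null libraries of Rap1gap agreed within a coefficient of variation of 1.52%. P2rx1 was at 1360, 1841 and 1571 against 927.3, 950.1 and 844.6 normalised reads (−0.81 ± 0.14 SE, edgeR adjusted p = 0.00044). Rab27b, a GTPase that tethers secretory granules, had 144, 199.2 and 124.8 normalised reads in wt and 90.28, 84.03 and 82.44 in S1pr2 null (−0.87 ± 0.26 SE, edgeR adjusted p = 0.0216). The Rab27b call was lost without wt 2, S1pr2 null 2 or S1pr2 null 3, with adjusted p of 0.128, 0.064 and 0.0687. Sycn, the granule protein syncollin, had 58, 57 and 34 reads in wt and 22, 30 and 20 in S1pr2 null. The libraries did not overlap, but the log2 fold change of −1.08 ± 0.85 (SE) did not pass in the fit over all groups (edgeR adjusted p = 0.386). It passed when only these 6 libraries were fitted (−1.07, edgeR adjusted p = 0.00404). Gp2, the major glycoprotein of the granule membrane, had 9, 3 and 3 reads in wt and 2, 2 and 4 in S1pr2 null, near the floor of 3 reads, so no fold change is given and a difference was not detectable at this depth.

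Genes that work with these factors and granules were read from lists. Of 25 digestive enzymes and cofactors tested, 18 were lower in S1pr2 null and none was higher (median log2 fold change −2.01). Ctrc, a chymotrypsin, had the lowest fitted value, with 83.0 ± 54.5 (SD, n = 3) normalised reads in wt and 0.888 ± 0.845 in S1pr2 null, which is under the floor of 3 reads. Of 16 genes of granule content, membrane and stimulation, 8 were lower and none higher (median −1.21), led by Serpini2, a pancreatic serpin (−2.20 ± 0.30 SE, edgeR adjusted p = 5.42e-05). Clps is counted both in this list and among the enzymes and cofactors. Of 15 genes reported as Bhlha15 targets or tied to acinar polarity, 9 were lower and none higher (median −0.47), led by Tmed6, a cargo receptor of the secretory pathway (−2.17 ± 0.31 SE, edgeR adjusted p = 8.8e-05). Lists of the general machinery changed less. Of 34 genes of granule fusion and trafficking, 11 were lower and 2 higher (median −0.16), with Rab26 (−1.05 ± 0.25 SE, edgeR adjusted p = 0.00478) at one end and Sytl2 (0.45 ± 0.15 SE, edgeR adjusted p = 0.0323) at the other. Rab26 is also counted among the Bhlha15-related genes. Of 17 PTF1 partners and acinar regulators, 7 were lower and 4 higher (median −0.28). Spdef, a factor of secretory epithelia, changed by −1.42 ± 0.29 (SE, edgeR adjusted p = 0.00193), and Rbpj, the early PTF1 subunit, by −0.93 ± 0.10 (SE, edgeR adjusted p = 8.03e-06). Tcf12, a bHLH partner of Ptf1a, was higher (0.28 ± 0.06 SE, edgeR adjusted p = 0.00175). The small counts of higher genes fell when 1 of several libraries was left out. Without wt 2, wt 3 or S1pr2 null 1, 2 partners and regulators were higher. Without wt 2, wt 3, S1pr2 null 2 or S1pr2 null 3 no trafficking gene was (1 without S1pr2 null 1). Calls over all genes fell as well in such fits, for example from 4199 to 2809 without wt 2.

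Other cell markers also differed between the genotypes. Of 20 general epithelial genes, such as the keratins Krt8 and Krt18 and the adhesion genes Cdh1 and Epcam, 18 were lower in S1pr2 null (median −0.46), and their summed level was 2620 to 2760 CPM in S1pr2 null against 3540 to 3870 CPM in wt. Of 11 endocrine markers 10 were lower, of 8 duct markers 3 were lower and none was higher, and of 10 mesenchymal markers 4 were higher and 4 lower. Tlx1 and Nkx2-5, markers of spleen, were both higher, with a summed level of 28.6 to 54.7 CPM in S1pr2 null and 14.5 to 18.6 CPM in wt. The fitted values of the factors and granule genes lay below the epithelial median, with the exception of Nr5a2 (−0.26). The part of spleen and endocrine markers in these values was not tested.

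**Figure D2:**
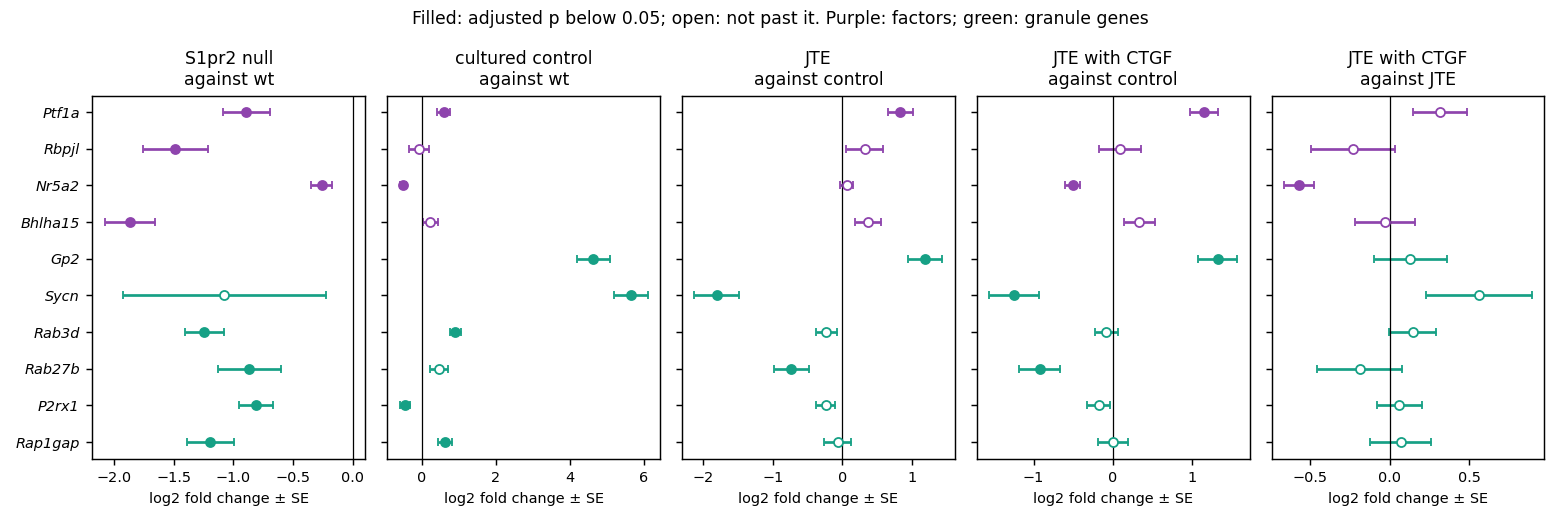
Log2 fold change of the 10 genes (horizontal axis, range differing between panels) with its standard error in 5 comparisons; purple marks factors, green granule genes, filled symbols an edgeR adjusted p below 0.05 and open symbols the rest. In the panel of S1pr2 null against wt, from which Gp2 is left out for its few reads, all values lie left of 0, while each of the other panels has values of both signs.

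The second comparison set the control explants, after 2 days of culture, against wt pancreata taken at the start. Time, culture and the dissected part of the organ differ together here and cannot be told apart. Genes of both roles moved in both directions. Of the 6 granule genes 4 rose (Sycn, Gp2, Rab3d and Rap1gap) and 1 fell (P2rx1), with a median log2 fold change of 0.76, whereas among the 4 factors Ptf1a rose, Nr5a2 fell and Rbpjl and Bhlha15 did not pass the test (median 0.07). Over all genes tested, 57.8% passed in this comparison, 28.5% as higher and 29.3% as lower, so that a count of 7 of 10 is close to that share.

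Sycn and Gp2 showed the largest differences of the 10 genes. Sycn had 52.21, 54.59 and 31.91 normalised reads in wt and 2902, 2705 and 1337 in control, a 49.9-fold difference (log2 fold change 5.64 ± 0.46 SE, edgeR adjusted p = 1.84e-08). Gp2 had 8.102, 2.873 and 2.815 normalised reads in wt and 184.7, 100.5 and 69.77 in control (4.63 ± 0.45 SE, edgeR adjusted p = 1.91e-07), a 24.7-fold difference that rests on few wt reads. For both genes the lowest control library was far above the highest wt library. Rab3d increased from 845.3, 1227 and 1001 to 2038, 2072 and 1644 normalised reads (0.91 ± 0.15 SE, edgeR adjusted p = 6.52e-05), also without overlap. Rap1gap increased from 1691, 2658 and 2116 to 3413, 3666 and 2852 (0.62 ± 0.19 SE, edgeR adjusted p = 0.00998), a call that was lost without wt 1 (0.47, edgeR adjusted p = 0.0608). P2rx1 fell by 0.45 ± 0.14 on the log2 scale (edgeR adjusted p = 0.0105), with 1210, 1270 and 1017 normalised reads in control, and lost its call without wt 2 or control 3 (adjusted p of 0.0668 and 0.0527). Rab27b, with 225.1, 230.2 and 187.5 normalised reads in control, differed by 0.46 ± 0.24 (SE, edgeR adjusted p = 0.114) and overlapped wt. It passed without wt 2, JTE 2 or JTE 3, with adjusted p of 0.0432, 0.0447 and 0.0219.

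Among the factors, Ptf1a had 1163, 1068 and 824.8 normalised reads in control against 464.5, 920.4 and 652.2 in wt (0.59 ± 0.18 SE, edgeR adjusted p = 0.0116). The groups overlapped, and the call was lost without wt 1 (0.37, edgeR adjusted p = 0.07) or control 1 (0.48, edgeR adjusted p = 0.0543). Nr5a2 fell by 0.51 ± 0.09 on the log2 scale, to 1190, 1211 and 956 normalised reads (edgeR adjusted p = 0.000128), and its groups did not overlap. Rbpjl, with 3742, 5664 and 3614 normalised reads in control, differed from wt by −0.08 (95% interval −0.64 to 0.47). Bhlha15, with 1766, 1817 and 1500, differed by 0.23 (95% interval −0.18 to 0.64). Levels of Rbpjl and Bhlha15 were thus within their wt range while the granule pair Sycn and Gp2 had risen by more than an order of magnitude.

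The cargo lists moved with Sycn and Gp2. Of the 25 enzyme genes 24 were higher in control than in wt and none lower (median 3.56), Rnase1 the most, from 10.6 ± 1.64 to 1936 ± 730 normalised reads (SD, n = 3). Of the 16 granule content and membrane genes 15 were higher (median 1.94), with Dmbt1 from 2.80 ± 1.64 to 567.7 ± 273 normalised reads. Of the 34 fusion and trafficking genes 20 were higher and 3 lower (median 0.34), with Sytl4, which binds Rab27 and Rab3 proteins on granules, at 2.45 ± 0.09 (SE, edgeR adjusted p = 1.11e-12) and Sytl2 at −2.0 ± 0.19 (SE, edgeR adjusted p = 9.98e-08). Of the 15 Bhlha15-related genes 12 were higher and 1 lower (median 0.60), with Pdia2, a pancreatic disulphide isomerase, at 4.44 ± 0.55 (SE, edgeR adjusted p = 2.83e-06). The 17 partners and regulators divided evenly, 4 higher and 4 lower (median 0.13), with 7 higher without wt 2. Rbpj was the lowest of them, at 424.2 ± 17.5 normalised reads in wt and 136.4 ± 20.7 in control (−1.63 ± 0.11 SE, edgeR adjusted p = 2.34e-09), while Rbpjl did not pass. Of the 20 general epithelial genes 16 were also higher (median 0.61), and their summed level rose to 4790 to 5310 CPM. Blood and platelet markers summed to 16.7 to 40.7 CPM in control against 1220 to 1450 CPM in wt, and their part in these differences was not tested.

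The next comparison asked what the antagonist JTE013 did to the 10 genes within culture. Against control, Ptf1a and Gp2 rose and Sycn and Rab27b fell, and the other 6 genes did not pass the test. Of the 4 factors 1 was higher and none lower (median log2 fold change 0.34, or 0.61 without JTE 3), and of the 6 granule genes 1 was higher and 2 were lower (median −0.24, or −0.04 without JTE 3), beside a median of 0 over all genes tested, of which 52.2% were called, 25.9% as higher and 26.2% as lower. The 4 of 10 called was below that share. No difference between the roles was tested. For these explants the study reports, from its own DESeq2 fit, that acinar transcription factors and differentiation markers were repressed together. None of the 4 factors was lower here.

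Ptf1a had 1163, 1068 and 824.8 normalised reads in control and 1873, 2085 and 1491 in JTE, without overlap (0.83 ± 0.18 SE, edgeR adjusted p = 0.000791). It remained called without any 1 library, at 0.70 to 0.96. Rbpjl was the factor in which the JTE libraries disagreed most, at 7075, 6592 and 2607 normalised reads against 3742, 5664 and 3614 in control (0.32 ± 0.26 SE, edgeR adjusted p = 0.326). Bhlha15 was at 2465, 2572 and 1521 against 1766, 1817 and 1500 (0.37 ± 0.19 SE, edgeR adjusted p = 0.119). In both genes JTE 1 and JTE 2 lay above every control library and JTE 3 did not. Without JTE 3, Rbpjl (0.65, edgeR adjusted p = 0.00382) and Bhlha15 (0.57, edgeR adjusted p = 0.00778) passed as higher, so that 3 of the 4 factors were called. Over all genes, 8062 were called in that fit and 8474 with JTE 3 kept. Nr5a2 was at 1262, 1229 and 1025 normalised reads in JTE and 1190, 1211 and 956 in control, a difference of 0.07 (95% interval −0.13 to 0.26), or 0.15 without JTE 3.

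Gp2 rose from 184.7, 100.5 and 69.77 to 241.2, 244 and 323.7 normalised reads (1.19 ± 0.25 SE, edgeR adjusted p = 0.000646), with every JTE library above every control library. Control 1 was well above the other control libraries, and without it the log2 difference was 1.66. Without JTE 3 it was 1.04. Sycn moved the other way, from 2902, 2705 and 1337 to 737.4, 989.4 and 271.6 normalised reads (−1.81 ± 0.32 SE, edgeR adjusted p = 0.000181), a 3.49-fold fall without overlap, which was −1.42 without JTE 3. Gp2 and Sycn, the genes with the fewest reads in wt, thus went opposite ways with JTE. Rab27b had 124.8, 195 and 68.83 normalised reads in JTE against 225.1, 230.2 and 187.5 in control (−0.73 ± 0.25 SE, edgeR adjusted p = 0.0197). It overlapped control in 1 library, JTE 2, and lost its call without JTE 3 (−0.42, edgeR adjusted p = 0.0813), JTE 1 (−0.71, edgeR adjusted p = 0.0505) or control 2 (−0.68, edgeR adjusted p = 0.0572). Rab3d and P2rx1 were within their control range in JTE 1 and JTE 2, Rap1gap was slightly above it, and all 3 were below it in JTE 3. Rab3d differed by −0.23 (95% interval −0.54 to 0.08) and passed, among the fits that left out 1 library, only without JTE 2 (−0.38, edgeR adjusted p = 0.0482), P2rx1 by −0.24 (−0.54 to 0.06) and Rap1gap by −0.07 (−0.47 to 0.33). Without JTE 3 these values were −0.035, −0.045 and 0.19, so that their sign or most of their size rested on that library.

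The wider lists were also divided with JTE. Of the 25 enzymes 11 were lower and 2 higher (median −0.37), and of the 16 granule content and membrane genes 5 were lower and 4 higher (median −0.06). Dmbt1 changed by −3.35 ± 0.35 (SE, edgeR adjusted p = 6.83e-07) and the water channel Aqp8 by 1.63 ± 0.37 (SE, edgeR adjusted p = 0.00141). Of the 15 Bhlha15-related genes 7 were higher, among them the connexin Gjb2 (1.96 ± 0.12 SE, edgeR adjusted p = 9.15e-10), and 5 lower, among them the stress-related factor Creb3l4 (−2.60 ± 0.19 SE, edgeR adjusted p = 1.11e-08). The fusion and trafficking genes gave 11 higher and 9 lower of 34, with Rap1gap2 (0.83 ± 0.08 SE, edgeR adjusted p = 1.52e-07) and Sytl4 (−1.39 ± 0.09 SE, edgeR adjusted p = 1.27e-09) at the ends. Rab27a, the close relative of Rab27b, fell by 0.65 ± 0.10 on the log2 scale (edgeR adjusted p = 3.74e-05). Of the partners and regulators 2 were higher and 6 lower of 17 (median −0.03), with Creb3l1 at 0.42 ± 0.05 (SE, edgeR adjusted p = 2.18e-06) and Spdef at −1.54 ± 0.24 (SE, edgeR adjusted p = 5.09e-05). All 7 macrophage markers, 5 of 6 endothelial, 10 of 11 endocrine, 5 of 8 duct, 5 of 6 smooth muscle, 3 of 4 mesothelial and 3 of 6 pancreatic epithelial markers were lower in JTE, with none of these higher, and the summed level of the 20 epithelial genes was 3320 to 3910 CPM, with 12 lower and 1 higher. Without JTE 3, 5 enzymes and 5 epithelial genes were higher. The lower Bhlha15-related genes numbered 3 without JTE 3, control 1 or control 2, and 1 partner or regulator was higher without control 1, control 3 or JTE 2.

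Adding CTGF to JTE013 was compared both with control and with JTE alone. These comparisons share libraries with the one above, so their values are set side by side and no overlap between them is counted. Against control, Ptf1a (1.15 ± 0.18 SE, edgeR adjusted p = 2.77e-05) and Gp2 (1.32 ± 0.25 SE, edgeR adjusted p = 0.000198) were higher, and Nr5a2 (−0.50 ± 0.10 SE, edgeR adjusted p = 0.000216), Sycn (−1.24 ± 0.32 SE, edgeR adjusted p = 0.00266) and Rab27b (−0.92 ± 0.26 SE, edgeR adjusted p = 0.00497) lower. That is 5 of 10 genes, beside 61.1% of all genes tested (28.1% higher, 33% lower), with a median of 0.21 for the factors and −0.13 for the granule genes. The libraries with CTGF held 2163, 2114 and 2505 normalised Ptf1a reads, all above the JTE libraries, and 364.7, 243.9 and 278.3 of Gp2. Sycn was at 714.6, 1009 and 1211, between JTE and control and overlapping JTE, and Rab27b at 93.76, 132.8 and 112.5. Rbpjl had 4705, 4676 and 4496 normalised reads and Bhlha15 1915, 2266 and 2236, with far less spread than in JTE. Bhlha15 lay above every control library at 0.34 ± 0.19 (SE, edgeR adjusted p = 0.139), and passed without JTE 3 (0.37, edgeR adjusted p = 0.0382). With libraries scaled to the summed reads of the 20 epithelial genes, Nr5a2 lost its call (−0.17, edgeR adjusted p = 0.135) and Bhlha15 gained one (0.66, edgeR adjusted p = 0.00119). Of other cell markers, 4 of 6 pancreatic epithelial (1 higher), 9 of 11 endocrine, 7 of 8 duct, 7 of 7 macrophage, 5 of 6 smooth muscle, 5 of 6 endothelial (1 higher) and 3 of 4 mesothelial markers were lower than in control, and 7 of 11 blood and platelet markers higher. Their part in these differences was not tested.

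Against JTE alone, Nr5a2 was the only one of the 10 to pass, beside 30.4% of all genes tested (13.6% higher, 16.8% lower). It had 846.1, 807.3 and 715.4 normalised reads with CTGF and 1262, 1229 and 1025 without (−0.57 ± 0.10 SE, edgeR adjusted p = 0.000263), with no overlap, and its call held without any 1 library (−0.62 to −0.50). Nr5a2 with CTGF was the lowest of the 5 groups. For the other 9 genes the 95% intervals of the difference were wide, among them 0.32 (−0.04 to 0.68) for Ptf1a, −0.23 (−0.78 to 0.33) for Rbpjl and 0.56 (−0.14 to 1.26) for Sycn, and a further call, Rbpjl at −0.53 (edgeR adjusted p = 0.0264), appeared without JTE 3. Rab3d (0.15, −0.17 to 0.46), P2rx1 (0.06, −0.24 to 0.36) and Rap1gap (0.07, −0.33 to 0.47) were close to 0. In the lists, 7 enzymes were higher with CTGF than with JTE alone and 1 was lower of 25, with Rnase1 at 1.54 ± 0.21 (SE, edgeR adjusted p = 3.64e-05). Of the granule content genes 3 were higher, Reg1 (2.45 ± 0.31 SE), Dmbt1 (2.03 ± 0.37 SE) and Cuzd1 (1.79 ± 0.34 SE), with edgeR adjusted p of 2.09e-05, 0.000567 and 0.000748, and 1 was lower. The count of higher enzymes was 4 when JTE 1 was left out and 14 when JTE 2 was. It was 4 without the second library of JTE with CTGF and 3 when replicate 3 of that group was dropped. Further, 5 granule content genes were higher without JTE 2. The lower enzyme was lost without JTE 1 or JTE with CTGF 1 and became 2 without JTE 3, and 2 granule content genes were lower without JTE with CTGF 1. Rbpj was also higher with CTGF than with JTE alone (0.52 ± 0.12 SE, edgeR adjusted p = 0.00352).

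The antagonist and the genotype label, both directed at S1pr2, were then compared by the difference of their responses, JTE against control minus S1pr2 null against wt, which share no library. The difference was positive and passed for all 4 factors and for Rab3d, Rap1gap and P2rx1, so that 7 of 10 genes passed, beside 42.9% of all genes tested, of which 21.5% were in this direction. It was 2.23 ± 0.28 (SE, edgeR adjusted p = 1.09e-05) for Bhlha15, 1.81 ± 0.38 (edgeR adjusted p = 0.00105) for Rbpjl and 1.72 ± 0.27 (edgeR adjusted p = 6.83e-05) for Ptf1a, genes that were lower with the label and not lower with JTE. Rap1gap (1.12 ± 0.27 SE, edgeR adjusted p = 0.00319) and Rab3d (1.01 ± 0.22 SE, edgeR adjusted p = 0.00134) followed. For P2rx1 (0.57 ± 0.20 SE, edgeR adjusted p = 0.0284) the call was lost without wt 2, S1pr2 null 3, control 3, JTE 1 or JTE 2 (adjusted p 0.0673 to 0.0879). For Nr5a2 (0.33 ± 0.13 SE, edgeR adjusted p = 0.0497) it was lost in 9 of 15 such fits (adjusted p up to 0.134), those without wt 2 or 3, any S1pr2 null library, control 3, JTE 1 or 2, or JTE with CTGF 2. Sycn and Rab27b did not pass (95% intervals −2.75 to 1.29 and −0.63 to 0.89), and for Gp2, whose genotype counts are near the floor, the value is not interpreted. The responses also differ in age, culture and the dissected part of the organ, and these cannot be told apart from the agent.

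**Figure D3:**
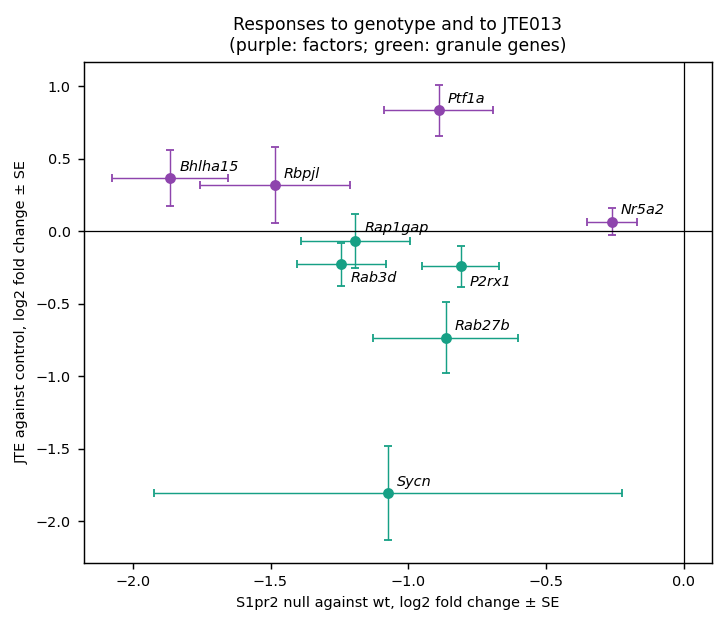
Log2 fold change of 9 of the genes, Gp2 left out for its few reads, in S1pr2 null against wt (horizontal axis) and in JTE against control (vertical axis), with standard errors; purple marks factors and green granule genes. All 9 lie left of 0 on the horizontal axis, the 4 factors above 0 on the vertical axis and the 5 granule genes below it, of which Rap1gap is above it (0.19) without JTE 3. Without control 3, Nr5a2 is below 0 on the vertical axis (−0.036). The granule gene not shown, Gp2, was higher in JTE than in control (1.19).

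Library by library, the factors and the granule genes were summarised by the median of their log2 CPM, each gene centred on its mean over 15 libraries. The S1pr2 null libraries were low in both, at −1.35 to −1.29 for the factors and −1.40 to −1.34 for the granule genes. The wt libraries had higher values for the factors (−0.27, 0.50 and 0.23) than for the granule genes (−0.47, 0.12 and −0.19). The control explants showed the reverse, with 0.13, 0.27 and −0.16 for the factors and 0.78, 0.80 and 0.49 for the granule genes. The granule medians of all control libraries lay above those of all wt libraries, whereas the factor medians of the same groups overlapped. In JTE 1 and JTE 2 the factors stood at 0.90 and 0.89 and the granule genes at 0.63 and 0.73, whereas JTE 3 was at 0 and −0.15. With CTGF the values were 0.43 to 0.55 for the factors and 0.51 to 0.60 for the granule genes. In wt, control, JTE and JTE with CTGF alike, the library with the lowest factor median also had the lowest granule median. Control 3 was the lowest control library for all 10 genes, and wt 2 the highest wt library for 9 of 10.

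**Figure D4:**
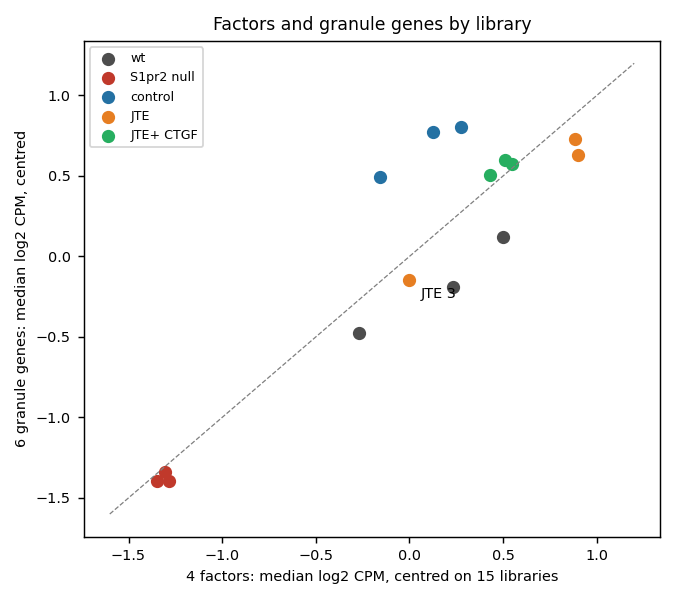
Median centred log2 CPM of the 4 factors (horizontal axis) and of the 6 granule genes (vertical axis) in each of the 15 libraries, coloured by group, with the line of equal values dashed. The S1pr2 null libraries sit together near −1.3 on both axes, the control libraries lie above the line and the wt libraries below it.

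The pattern over the 5 group means separated the 10 genes in another way than their roles. The root mean square difference between centred log2 group means was smallest for Rab3d and Rap1gap (0.12), then for Rbpjl and Rap1gap (0.25), Bhlha15 and Rab3d (0.27) and Bhlha15 and Rap1gap (0.28). Rbpjl, Bhlha15, Rab3d and Rap1gap, 2 factors and 2 granule genes, thus varied alike, with all pairs at 0.36 or less. Nr5a2 and P2rx1, highest in wt, were 0.32 apart, and Rab27b was nearer to P2rx1 (0.34) than to any other. Gp2 and Sycn were far from all others, and from each other at 1.09. Outside the 10, among 14508 protein-coding genes, the patterns nearest to that of Ptf1a were those of Macrod1 (0.08), Tmem130 (0.08) and Fbp1 (0.11), and to that of Rbpjl those of Gfi1 (0.07), Rsph3a (0.14) and 1700007K13Rik (0.14). Those nearest to Gp2 were Hsd17b13 (0.25), Gdf15 (0.37) and Adm2 (0.54), and to Sycn Cxcl10 (0.23), Ccl20 (0.37) and Cym (0.42). These distances are over 5 group means and are descriptive.

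The order of the groups differed accordingly. S1pr2 null was the lowest group for 9 of the 10 genes, all but Nr5a2, and was clear of the next group for Ptf1a, Rbpjl, Bhlha15, Sycn, Rab3d, Rab27b and Rap1gap, while for Gp2 and P2rx1 it overlapped it. Ptf1a ran from S1pr2 null through wt, control and JTE to JTE with CTGF, and among its neighbours only wt and control overlapped. For Rbpjl the 4 groups above S1pr2 null overlapped from neighbour to neighbour. Bhlha15 had its highest mean in JTE, which overlapped JTE with CTGF. Nr5a2 was highest in wt, which was clear of S1pr2 null, and lowest in JTE with CTGF, which was clear of control, while S1pr2 null, JTE and control overlapped from neighbour to neighbour. P2rx1 was also highest in wt, clear of control. Gp2 was highest in the JTE groups, which overlapped each other and were clear of control. Sycn was highest in control, clear of both JTE groups. Rab3d, Rab27b and Rap1gap had their highest means in control, in each case overlapping the next group. The share of all genes with groups clear of each other is not given, so this order is descriptive.

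Since acinar genes are epithelial and the summed epithelial level differed between groups, the fits were repeated with library size set to the summed reads of the 20 epithelial genes. This moved the median of all genes tested by 0.43 in S1pr2 null against wt, by 0.43 in JTE against control and by −0.61 in control against wt. In S1pr2 null, 6 of the 10 genes remained lower and none was higher: Ptf1a, Rbpjl and Bhlha15 among the factors, with Rab3d, P2rx1 and Rap1gap. The medians were −0.73 for the factors and −0.55 for the granule genes. Nr5a2 turned to 0.19 (edgeR adjusted p = 0.0953), which is below the median shift of all genes, and Rab27b lost its call (−0.41, edgeR adjusted p = 0.0914). In JTE all 4 factors were then called as higher (Ptf1a, Bhlha15, Rbpjl at 0.69 and Nr5a2 at 0.49), with Gp2, and Sycn was called as lower, while Rab27b lost its call (−0.34, edgeR adjusted p = 0.148). Relative to the shift of 0.43, Nr5a2 lay close to the median gene. In control against wt, Ptf1a (0.0036) and Rap1gap (0.039) were no longer called, Rbpjl (−0.66) and Bhlha15 (−0.35) joined Nr5a2 and P2rx1 as lower, and Gp2, Sycn and Rab3d remained higher. Relative to the shift of −0.61, Rbpjl lay close to the median gene and Bhlha15 above it. Keratins Krt8 and Krt18 made up 22.0% to 22.4% of the epithelial sum in control and 13.4% to 16.5% in the other groups, so the scaling depends in part on how these 2 genes themselves change.

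**Figure D5:**
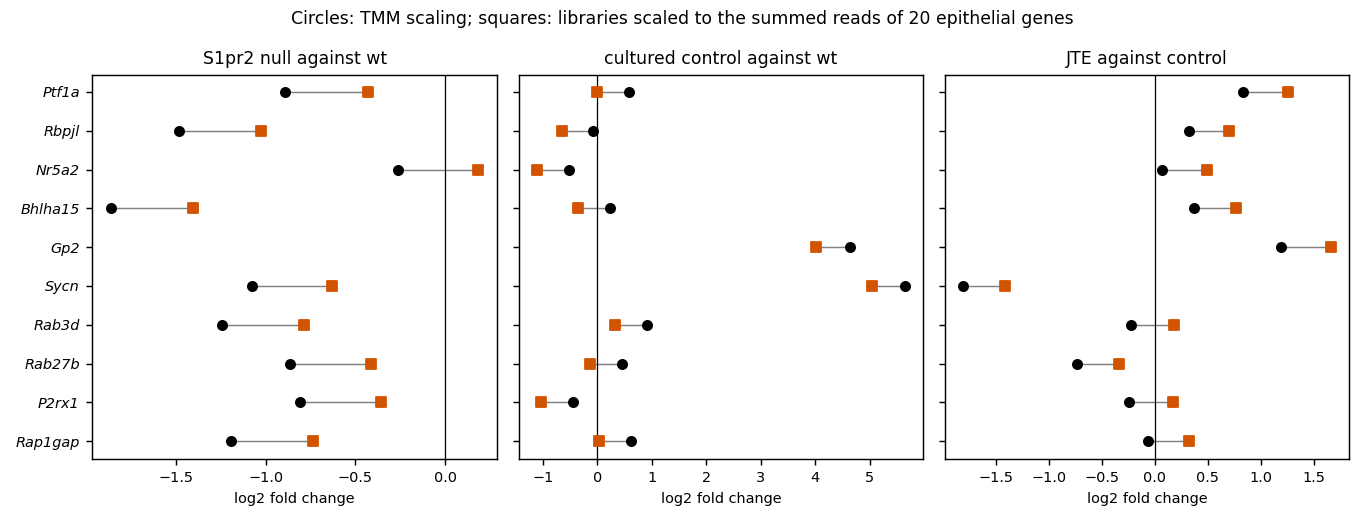
Log2 fold change of the 10 genes (horizontal axis, range differing between panels) with libraries scaled by TMM (black circles) and by the summed reads of 20 epithelial genes (orange squares), in 3 comparisons, without Gp2 in the first. The squares lie right of the circles in the panels of S1pr2 null against wt and JTE against control and left of them in that of control against wt, and for S1pr2 null only Nr5a2 crosses 0.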

How the data were processed

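RNA of 15 libraries was sequenced as single-end reads from strand-specific poly(A) libraries. The authors aligned the reads to mm10 with GSNAP, counted uniquely aligned reads per Ensembl gene with featureCounts 1.4.6, and deposited the raw read counts. The strand setting of the counting was not stated. Symbols from GENCODE M21 matched 24750 of 25292 genes (97.9%). Each library's group and number follow its title, and no library was left out.

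From the deposited counts, all 15 libraries were fitted together in edgeR 4.0.16 (R 4.3.3; quasi-likelihood F-test), with TMM factors, filterByExpr and 1 coefficient per group, and p-values were adjusted by Benjamini-Hochberg over 16245 genes and called below 0.05. The biological coefficient of variation was 7.3%. Depth was similar in all libraries, so that counting error matters for Gp2, Sycn in uncultured pancreata, and Rab27b. Intervals cover 95% and, for read counts, counting error only. DESeq2 1.42.0, other scalings and filters, a replicate block, and each library left out were the alternatives. On simulated counts of 15872 genes, 191 of 200 genes changed in JTE against control were called, with 12 false calls. No gene was called in S1pr2 null against wt, which was simulated without change. Same-numbered libraries varied together little (correlations −0.10 to 0.25), so the numbers were not used as pairs. The highest values were 0.15 and 0.25, for replicates 2 and 3 of JTE against control.

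The members and lists were chosen with earlier results of these data known. Named genes are all 10 members, S1pr2, the called genes with the largest rise and fall in each list (others of a list with their value), and the 3 protein-coding genes nearest in pattern to Ptf1a, Rbpjl, Gp2 and Sycn.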

Additional observations from a re-analysis of the deposited data

Results flagged for a closer look

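The effect of JTE013 in culture differed from that of the genotype labelled S1pr2 null, by the test of the difference itself, for 7 of the 10 genes. The difference of the log2 fold changes was 1.72 for Ptf1a, 1.81 for Rbpjl, 0.33 for Nr5a2 and 2.23 for Bhlha15, and 1.01 for Rab3d, 0.57 for P2rx1 and 1.12 for Rap1gap. Each value is positive because the gene was lower with the genotype label and was not lower to the same degree with the antagonist. The values for Nr5a2 and P2rx1 did not keep their call when some libraries were left out, whereas those of the other 5 genes kept it in all 15 fits. Over all genes tested 42.9% passed this test. Age, culture and dissection differ between the arms and cannot be told apart from the agent.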

How the results depend on the processing

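Of the alternatives, epithelial scaling moved the 10 genes most, together with the median of all genes. It turned Nr5a2 in S1pr2 null against wt to 0.19. In JTE against control it turned Rab3d to 0.18, P2rx1 to 0.17 and Rap1gap to 0.32, and in JTE with CTGF against control, where the median of all genes moved to 0.29, it turned the same genes to 0.24, 0.15 and 0.32, ended the call of Nr5a2 (−0.17) and gave one to Bhlha15 (0.66). In JTE with CTGF against JTE it turned P2rx1 to −0.021 and Rap1gap to −0.002, and in control against wt Bhlha15 to −0.35 and Rab27b to −0.12. Rap1gap in JTE with CTGF against control, near 0 throughout, was 0.036 without a filter on low counts, 0.022 with the libraries of the comparison only and 0.013 with the replicate block. In JTE with CTGF against JTE the number of the 10 genes called rose from 1 to 3 without the filter, with Ptf1a and Sycn. Calls over all genes went from 4941 to 5019 there. Under epithelial scaling 17 trafficking genes were higher in S1pr2 null in place of 2, and 18 were lower in control in place of 3. Calls over all genes also rose in these comparisons, from 4199 to 10948 and from 9389 to 12796. The 18 lower enzymes in S1pr2 null stayed within 1.5 times of their number.

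Leaving out 1 library at a time changed the sign only of values that were not called. In JTE against control Nr5a2 ranged from −0.036 to 0.15 and Rap1gap from −0.23 to 0.19, and in JTE with CTGF against control Rbpjl ranged from −0.025 to 0.33 and Rap1gap from −0.098 to 0.079. In JTE with CTGF against JTE the ranges were −0.53 to 0.0088 for Rbpjl, −0.20 to 0.10 for Bhlha15, −0.05 to 0.32 for Gp2, −0.012 to 0.30 for Rab3d, −0.47 to 0.24 for Rab27b, −0.097 to 0.19 for P2rx1 and −0.15 to 0.23 for Rap1gap, with 1 to 2 genes called. Rbpjl in control against wt ranged from −0.32 to 0.098, and Rab27b in the difference of responses from −0.29 to 0.45.

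The replicate block, by shared numbers that were not used as pairs elsewhere, brought Rab27b in control against wt past the threshold (0.47, edgeR adjusted p = 0.0412). It changed no other call of the 10 genes. Rab27b also passed there without the filter and with the libraries of the comparison only (0.48 in each). In the difference of responses, Nr5a2 lost its call with DESeq2 (0.30, adjusted p = 0.068), with DESeq2 size factors in edgeR (adjusted p = 0.066) with the libraries of the comparison only (adjusted p = 0.0522) and under epithelial scaling (0.30, adjusted p = 0.11), and Gp2 gained one with DESeq2 (2.1, adjusted p = 0.0151) and without the filter (2.11, adjusted p = 0.0316). Bhlha15 passed as higher without the filter in both JTE groups (0.37 in each) and with the libraries of the comparison only in JTE with CTGF (0.36), where Rab27b in JTE alone lost its call (−0.74, adjusted p = 0.0711). The cause of these changes was not tested. Depth limits Gp2 in uncultured pancreata, which held 15 summed reads in wt. Sycn held 149 there, and its call in S1pr2 null against wt depended on which libraries were fitted together. Its edgeR adjusted p was 0.386 over all groups and 0.00404 with the libraries of the comparison only.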
